A study of Homo sapiens with 6 samples.

Results

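The genes described here are 10 components of TGF-beta signalling in H358 cells: the ligands TGFB1 and TGFB2, the receptors TGFBR1 and TGFBR2, the signal transducers SMAD2, SMAD3 and SMAD4, the inhibitor SMAD7, and the matrix genes THBS1 and TGFBI. They were chosen with earlier results of these data known, and were found by symbol in a table of 54607 Ensembl genes. Each symbol matched 1 row, and all 10 passed the filter on low values. H358 is a human lung cancer line of epithelial character. The knockdown cells carried lentiviral short hairpin RNAs against the splicing regulators ESRP1 and ESRP2 together, and the control cells a control knockdown. Each group had 3 libraries, described as biological triplicates (n = 3 in every mean ± SD below), made from TRIzol-extracted RNA with a stranded mRNA kit. Whether the transduced cells were a pool or a clone is not given in the sources used here. The groups differ in their constructs, and what a construct does by routes other than ESRP loss cannot be told apart from what ESRP loss does.

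TGF-beta ligands are secreted in a latent complex and, once released, bring together type II and type I receptor kinases. The type I receptor phosphorylates SMAD2 and SMAD3, which enter the nucleus with SMAD4 and act on target genes, while SMAD7 blocks the receptor step. In epithelial cells the pathway is known for slowing growth and for driving the epithelial to mesenchymal transition. Thrombospondin 1, the product of THBS1, is a matrix glycoprotein that can release the ligand from its latent complex. TGFBI encodes a secreted matrix protein with fasciclin domains that was named for its induction by TGF-beta.

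Levels are given as FPKM, which divides the fragments of a gene by its transcript length and by a measure of library size. Levels of different genes can thus be set side by side, but only roughly. An isoform switch can move a gene's FPKM, and a listed 0 may stand for a failed estimate. How the libraries were scaled to each other is not given. ESRP1 stood at 16.3% of its control level and ESRP2 at 54.2%, with no overlap between the groups for either gene. Read totals are unknown. Relative depth was estimated as the most common ratio of control replicate 1 to another library, among values below 0.3 FPKM in both. For the other 5 libraries this estimate lay between 0.993 and 1.67 times that of control replicate 1. A gene was called when limma's Benjamini-Hochberg adjusted p over all 13611 tested genes was at most 0.05 (two-sided). Of lung epithelial markers, EPCAM stood at 398 ± 8.3 FPKM in the knockdown and 405 ± 6.1 in the control, NKX2-1 at 47.8 ± 0.81 and 48.2 ± 1.2, and the surfactant gene SFTPB was listed at 0 in all libraries. Of 8 tested epithelial markers, 5 were called lower (KRT7, KRT8, KRT18, KRT19 and CDH1), beside 10.2% of all tested genes. These stood at between 76.2% (CDH1) and 90.0% (KRT8) of their control level.

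The matrix genes and the type II receptor gene rose in the knockdown, SMAD3 fell, and the ligands, the type I receptor gene and the other SMADs were not called. Of the 10 genes, which were chosen with earlier results of these data known, 3 rose and 1 fell. Over all tested genes 16.7% were called, 6.54% upward and 10.2% downward. The median difference of the 10 genes, knockdown minus control on the log2(FPKM + 1) scale, was 0.08, where that of all tested genes was -0.0021. The groups did not overlap for the same 4 genes and overlapped for the other 6. Over all tested genes, 38.1% had groups that did not overlap, 17.3% with the knockdown higher and 20.9% with it lower.

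The promoters of the genes that rose are shown because these genes moved in the same direction. Each sequence is the 250 bases before a RefSeq transcription start, 5′ to 3′ on the strand of the gene, in build GRCh38.p14, which differs from the hg19 build of the expression table. Capitals mark matches, on either strand, to CAGAC, the short element bound by SMAD3 and SMAD4, to TGANTCA, bound by AP-1, and to GGGCGG, the GC box bound by SP1.
THBS1, chr15:39580829-39581078, plus strand: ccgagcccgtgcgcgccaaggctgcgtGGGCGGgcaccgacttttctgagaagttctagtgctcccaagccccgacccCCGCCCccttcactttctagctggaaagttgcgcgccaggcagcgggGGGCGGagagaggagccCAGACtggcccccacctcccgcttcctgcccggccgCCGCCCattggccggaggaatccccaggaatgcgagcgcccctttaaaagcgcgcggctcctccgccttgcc
TGFBI, chr5:136028738-136028987, plus strand: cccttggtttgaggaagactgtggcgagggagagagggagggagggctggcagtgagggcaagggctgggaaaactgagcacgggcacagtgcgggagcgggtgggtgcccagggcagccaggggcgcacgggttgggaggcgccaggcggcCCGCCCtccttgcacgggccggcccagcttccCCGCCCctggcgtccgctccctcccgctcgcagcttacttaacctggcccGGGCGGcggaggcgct
TGFBR2, the downstream of its 2 starts, chr3:30606351-30606600, plus strand: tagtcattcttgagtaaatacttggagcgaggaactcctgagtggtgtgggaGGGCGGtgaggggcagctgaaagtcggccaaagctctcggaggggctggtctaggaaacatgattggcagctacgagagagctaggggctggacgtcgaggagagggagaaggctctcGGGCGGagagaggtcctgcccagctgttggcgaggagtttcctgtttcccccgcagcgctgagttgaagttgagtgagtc

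The THBS1 window held 1 CAGAC match, which began 108 bases before the start (position -108), and 4 GC boxes. The TGFBI window held 3 GC boxes and no CAGAC, and the TGFBR2 window shown held 2 GC boxes and no CAGAC. The other TGFBR2 window held no match to the motifs. All 10 genes had at least 1 window in the table, 25 in all. Windows of the same gene overlap for TGFBR1, TGFBR2 and SMAD2, so the windows are not independent. A CAGAC match was present in 10 of these windows, belonging to 5 genes (TGFB2, TGFBR1, SMAD3, SMAD7 and THBS1), and a GC box in 12, belonging to 8 genes. TGANTCA was present in 1 window, of SMAD3, and the palindrome GTCTAGAC, a SMAD-binding element, in none. Of all 35116 windows of this length, 38.0% held CAGAC, 42.6% GGGCGG, 6.57% TGANTCA and 0.182% GTCTAGAC. These shares are per window and can be set only beside the counts of windows. A gene with several windows, such as TGFBR1 with 8, has more room for a match. The matches are letters in a window, and SMAD binding was not measured in these data.

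**Figure D1:**
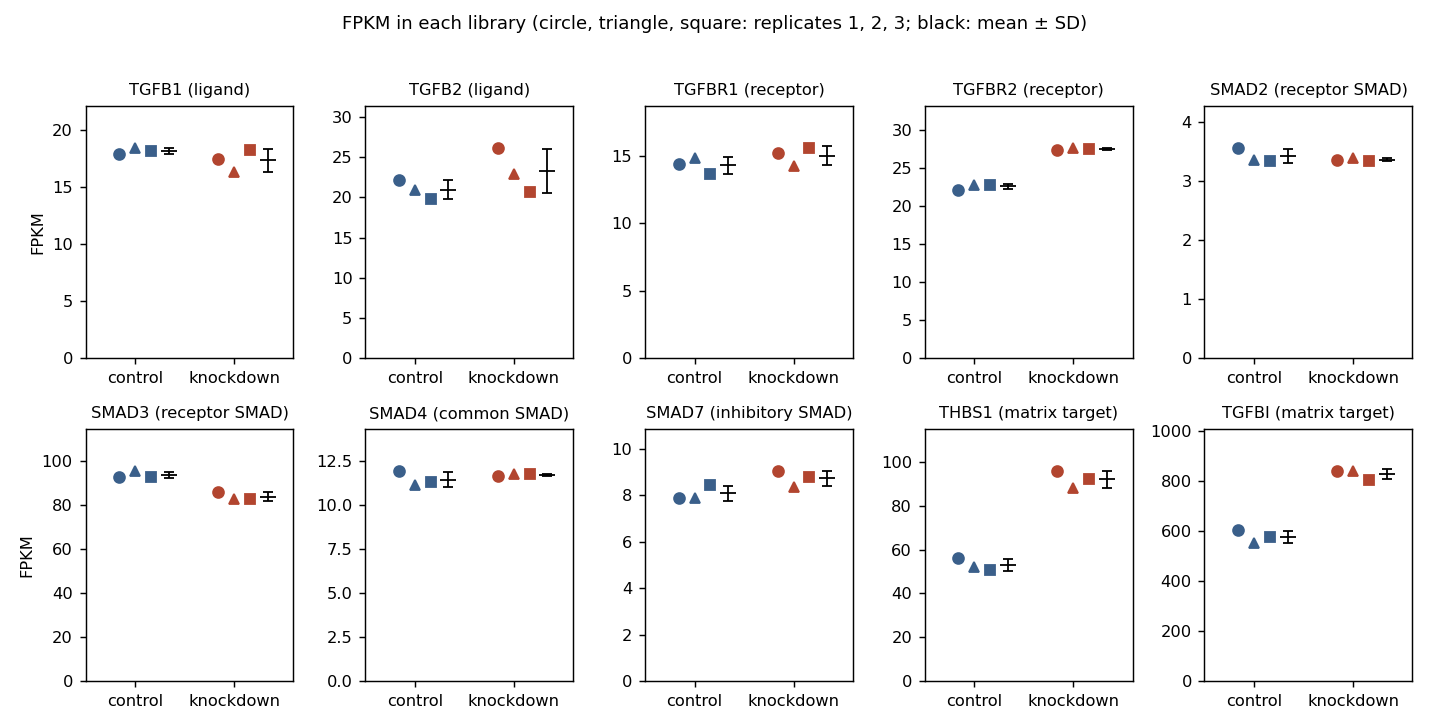
FPKM of each of the 10 genes in each library (vertical axes start at 0 and differ between panels), with control libraries in blue, knockdown libraries in red, and the mean ± SD in black. The groups lie apart for TGFBR2, SMAD3, THBS1 and TGFBI and overlap for the other 6 genes.

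THBS1 (ENSG00000137801, hg19 chromosome 15, 39873280 to 39891667) was at 96.0, 88.2 and 92.4 FPKM in knockdown replicates 1, 2 and 3 and at 56.1, 51.9 and 50.9 FPKM in control replicates 1, 2 and 3. Every knockdown library was above every control library. The means were 92.2 ± 3.9 and 52.9 ± 2.8 FPKM, a ratio of 1.74, and the log2 difference was 0.79 (SE 0.05, limma adjusted p = 1.6e-04). By p-value THBS1 was number 20 of the 13611 tested genes, and by the size of the difference number 97.

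TGFBI (ENSG00000120708, chromosome 5, 135364584 to 135399507) was at 839, 839 and 805 FPKM in the knockdown and 601, 552 and 575 FPKM in the control. It ranked at percentile 99.1 of tested genes by level, and here too every knockdown library was above every control library. The means were 828 ± 20 and 576 ± 25 FPKM, a ratio of 1.44, with a log2 difference of 0.52 (SE 0.04, limma adjusted p = 3.0e-04), number 42 of the tested genes by p-value. The 4 fibroblast markers COL1A2, COL3A1, DCN and PDGFRB summed to between 0.289 and 0.335 FPKM in the knockdown libraries and between 0.109 and 0.279 in the control libraries. COL1A1, a further fibroblast gene, stood at 9.50 ± 1.2 and 8.85 ± 1.0 FPKM and was not called (limma adjusted p = 0.57); its part in the result was not tested. The endothelial markers CDH5 and VWF summed to at most 0.232 FPKM, and PECAM1 was not among the listed symbols. Of leukocyte markers, PTPRC and LYZ were below the level for testing. CD68 stood at 12.9 ± 0.73 FPKM in the knockdown and 14.8 ± 0.80 in the control. Its groups did not overlap, but it was not called (limma adjusted p = 0.053). In bulk RNA, a change in the number of cells of a type and a change in RNA per cell cannot be told apart.

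Of the receptor genes TGFBR2 was called and TGFBR1 was not, and the test of their difference is that of their ratio, given further on. TGFBR2, which encodes the type II receptor that binds the ligand (ENSG00000163513, chromosome 3, 30647994 to 30735634), was at 27.4, 27.6 and 27.5 FPKM in the knockdown and 22.2, 22.8 and 22.8 FPKM in the control. The libraries within each group lay close together and the groups lay apart. The ratio of the means was 1.22 and the log2 difference 0.27 (SE 0.03, limma adjusted p = 0.0014). TGFBR1, the type I receptor (ENSG00000106799, chromosome 9, 101866320 to 101916474), was at 15.3, 14.3 and 15.6 FPKM in the knockdown and 14.4, 14.9 and 13.7 FPKM in the control. These groups overlapped, and the log2 difference of 0.07 had a 95% interval from -0.04 to 0.18 (limma adjusted p = 0.37).

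Among the SMAD genes, SMAD3 (ENSG00000166949, chromosome 15, 67356101 to 67487533) was by far the most abundant, at 86.0, 82.5 and 82.7 FPKM in the knockdown and 92.9, 95.4 and 92.5 FPKM in the control. Every knockdown library was below every control library. The mean fell from 93.6 ± 1.6 to 83.8 ± 2.0 FPKM, a ratio of 0.895, with a log2 difference of -0.16 (SE 0.03, limma adjusted p = 0.010).

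SMAD2, the other receptor-activated SMAD of the pathway (ENSG00000175387, chromosome 18, 45357922 to 45457515), was the least abundant of the 10 genes, at 3.35, 3.38 and 3.34 FPKM in the knockdown and 3.55, 3.35 and 3.34 FPKM in the control. The groups overlapped, with a log2 difference of -0.02 and a 95% interval from -0.15 to 0.11 (limma adjusted p = 0.85). SMAD4, the common partner (ENSG00000141646, chromosome 18, 48494410 to 48611415), was at 11.6, 11.7 and 11.7 FPKM in the knockdown and 11.9, 11.1 and 11.3 FPKM in the control. Its log2 difference was 0.03, with an interval from -0.06 to 0.12 (limma adjusted p = 0.63). The row of SMAD4 overlaps that of ELAC1 on the same strand, which stood at 2.00 and 1.85 FPKM, and how the reads of the overlap were assigned was not tested.

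SMAD7, itself a target of the pathway that feeds back on the receptors (ENSG00000101665, chromosome 18, 46446223 to 46477081), was at 9.05, 8.37 and 8.77 FPKM in the knockdown and 7.90, 7.90 and 8.45 FPKM in the control. Knockdown replicate 2 was below control replicate 3, and the other knockdown libraries were above all control libraries. The log2 difference was 0.10, with an interval from -0.01 to 0.21 (limma adjusted p = 0.20), so the gene was not called.

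The ligand genes were not called either. TGFB1 (ENSG00000105329, chromosome 19, 41836813 to 41859831) was at 17.5, 16.3 and 18.3 FPKM in the knockdown and 17.9, 18.4 and 18.2 FPKM in the control, with a log2 difference of -0.06 and an interval from -0.17 to 0.04 (limma adjusted p = 0.38). TGFB2 (ENSG00000092969, chromosome 1, 218519577 to 218617961) was at 26.1, 22.9 and 20.7 FPKM in the knockdown and 22.1, 20.9 and 19.8 FPKM in the control. The spread of the knockdown libraries was the widest relative to the mean among the 10 genes, knockdown replicate 3 lay within the control range, and the interval of the log2 difference of 0.14 ran from -0.05 to 0.33 (limma adjusted p = 0.27). TGFB3, the remaining ligand of this type, stood at 5.23 ± 0.50 and 4.39 ± 0.35 FPKM in knockdown and control (limma adjusted p = 0.11). TMEM91 overlaps TGFB1 on the opposite strand, at 1.35 and 1.39 FPKM.

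**Figure D2:**
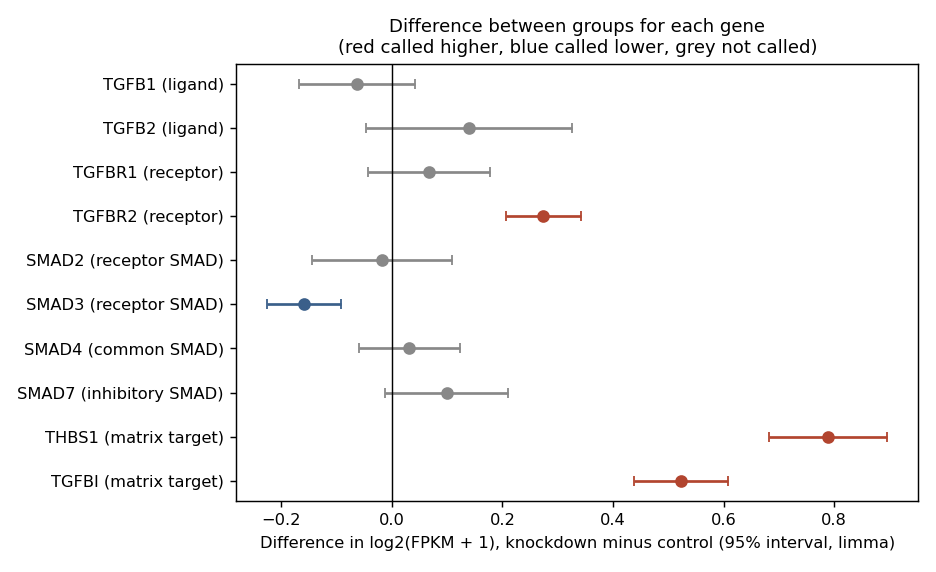
Difference in log2(FPKM + 1) between knockdown and control for the 10 genes, with 95% intervals from limma. The intervals of THBS1, TGFBI and TGFBR2 lie above 0, that of SMAD3 lies below 0, and those of the other 6 include 0.

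The order of the levels was almost the same in both groups. From the highest, the control libraries had TGFBI, SMAD3, THBS1, TGFBR2, TGFB2, TGFB1, TGFBR1, SMAD4, SMAD7 and SMAD2. In the knockdown THBS1 stood above SMAD3, at 92.2 against 83.8 FPKM, and the order was otherwise the same. Neighbours in either order did not overlap between libraries, although TGFBR2 and TGFB2 came close in the control, where the lowest TGFBR2 value was 22.2 and the highest TGFB2 value 22.1 FPKM.

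Ratios between these genes within a library do not move with the scaling between libraries. The ratio of SMAD3 to SMAD2 was 25.6, 24.4 and 24.8 in the knockdown and 26.2, 28.5 and 27.7 in the control. The ratio of TGFBR1 to TGFBR2 was 0.556, 0.517 and 0.566 in the knockdown and 0.649, 0.652 and 0.598 in the control. In both ratios every knockdown library was below every control library.

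SMAD7 relative to the sum of SMAD2 and SMAD3 was 0.101, 0.0975 and 0.102 in the knockdown and 0.0819, 0.0800 and 0.0881 in the control, higher in every knockdown library. TGFBI relative to THBS1 was 8.74, 9.51 and 8.71 in the knockdown and 10.7, 10.6 and 11.3 in the control, lower in every knockdown library. For these 4 ratios the two-sided exact permutation p was 0.10, the smallest that 3 libraries against 3 allow, and 0.125 adjusted over the 5 ratios. The ratio of TGFB2 to TGFB1, at 1.34 ± 0.19 and 1.15 ± 0.077, overlapped between the groups (exact permutation p = 0.30).

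**Figure D3:**
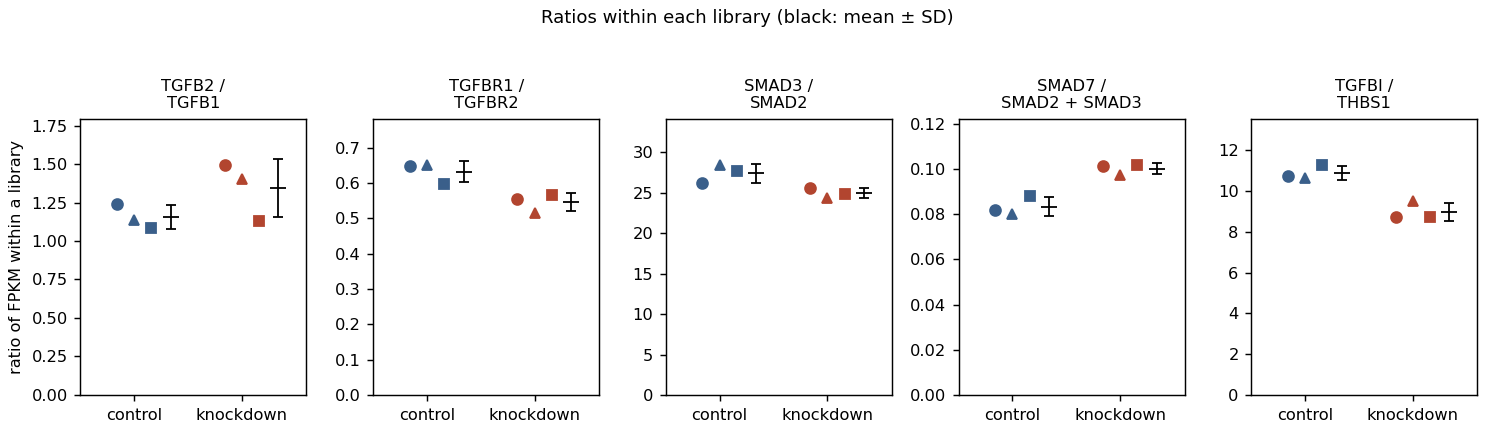
Ratios of FPKM within each library for 5 pairs or sums of genes, with control libraries in blue, knockdown libraries in red and the mean ± SD in black. The groups lie apart in every panel but that of TGFB2 to TGFB1.

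The rest of the pathway was examined in 7 lists of 87 genes, of which 60 were tested, 7 rose and 6 fell. That is 21.7% called, beside 16.7% of all tested genes. The lists, chosen with earlier results of these data known, were unlike in this: 47.4% of tested genes were called in the list of target genes. In each other list the share was between 0 and 16.7%, so none of these was above the share of all tested genes. Among genes that hold and release the latent ligand, 1 of 7 tested rose and none fell. This was ITGAV, the integrin alpha subunit that binds latent TGF-beta, from 49.3 ± 0.96 to 55.9 ± 2.9 FPKM (limma adjusted p = 0.025). With a single library removed, ITGAV stayed called only without knockdown replicate 3 (highest adjusted p 0.090, from limma), and it was also lost with no filter on low values or no intensity trend. Its partner ITGB6 stood at 34.6 ± 0.89 FPKM with the knockdown and 33.5 ± 0.16 FPKM without, and the latent binding protein gene LTBP3, at 143 ± 8.8 and 153 ± 4.2 FPKM, was not called. The median log2 difference of the list was -0.03.

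Of other ligands and ligand traps 4 were tested and none was called. Of other receptors and co-receptors 1 of 6 rose. This was NRP1, neuropilin 1, which can bind TGF-beta and acts as a co-receptor for other factors, from 21.0 ± 1.8 to 26.2 ± 0.37 FPKM (log2 difference 0.31, limma adjusted p = 0.014). That call was lost without knockdown replicate 2 (adjusted p = 0.052) and with no filter on low values (adjusted p = 0.056). The co-receptor gene TGFBR3 was below the level needed for testing, at 0.296 ± 0.048 and 0.297 ± 0.037 FPKM. Of 10 adaptors and nuclear partners, FKBP1A rose, from 293 ± 5.0 to 319 ± 4.6 FPKM (limma adjusted p = 0.018). Its product, FKBP12, binds the type I receptor and keeps it inactive. The call was lost when knockdown replicate 1, control replicate 1 or control replicate 2 was removed (highest adjusted p 0.066), and with the replicate number as a block.

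Of 12 tested negative regulators 1 fell and none rose. TGIF1, a repressor that binds SMAD2 and SMAD3, went from 53.5 ± 1.9 to 47.4 ± 1.4 FPKM (limma adjusted p = 0.020), and the call was lost on removal of control replicate 1 or of control replicate 3 (highest adjusted p 0.067). It was also lost with the replicate number as a block. The feedback inhibitors SKIL and PMEPA1 were not called (limma adjusted p = 0.36 and 0.084). The groups did not overlap for 7 of the 12 genes, beside 38.1% of all tested genes. Among these the knockdown was higher for PMEPA1, SMAD6, SKI and SMURF2. It was lower for TGIF1, NEDD4L and PPM1A. Over all tested genes, 17.3% lay apart with the knockdown higher and 20.9% with it lower. In all 7 lists together the groups lay apart for 29 of 60 tested genes, and in the list of target genes for 11 of 19.

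Of 19 tested target genes of the pathway 4 rose and 5 fell, with a median log2 difference of -0.08. That is 47.4% called in a list chosen with earlier results of these data known. Over all tested genes 16.7% were called, 6.54% upward and 10.2% downward. Without control replicate 3, 2 of the 19 were called higher and 1 lower, and calls over all tested genes went from 2278 to 1187. With the replicate number as a block, 2 of the 19 were called higher and 2 lower, and 1433 genes were called over all. CTGF, which encodes connective tissue growth factor, was at 5.56 ± 0.26 FPKM in the knockdown and 3.91 ± 0.12 in the control (log2 difference 0.42, limma adjusted p = 0.0030). CDKN1A, which encodes the cell cycle inhibitor p21, was at 33.4 ± 0.87 and 44.5 ± 1.0 FPKM (-0.40, limma adjusted p = 5.0e-04). Removing any library left both calls in place. SNAI1 and SNAI2, repressors of epithelial genes that take part in the mesenchymal switch, rose by 0.26 and 0.17 on the log2 scale. LOX, a collagen crosslinking enzyme, rose by 0.31. Its level was low, at 2.59 ± 0.093 FPKM in the knockdown and 1.90 ± 0.17 in the control, where log2(FPKM + 1) understates a change. BHLHE40, a transcriptional repressor, fell by 0.12 on the log2 scale. The SNAI1 call depended on knockdown replicate 2 and control replicate 2, and was lost on removal of either. Removal of knockdown replicate 1, knockdown replicate 2 or control replicate 3 ended the calls of LOX and BHLHE40, as did removal of control replicate 1 for LOX and of control replicate 2 for BHLHE40. SNAI2 stayed called only with knockdown replicate 3 removed. The highest adjusted p from limma among these fits was 0.084.

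The remaining calls in this list, IL11, TGM2 and FN1, all lower, were lost in 5, 4 and 5 of the 6 fits with a library removed. The level of IL11 was low, at 2.66 ± 0.21 FPKM in the knockdown and 3.52 ± 0.20 in the control. IL11 stayed called only with knockdown replicate 2 removed, FN1 only with knockdown replicate 3 removed, and TGM2 with knockdown replicate 3 or control replicate 2 removed. The FN1 call was lost under 11 of 14 alternatives, among them other scalings and a pseudocount of 0.1. The calls of LOX, SNAI2, BHLHE40, IL11 and FN1 were also lost with the replicate number as a block.

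Relatives of the matrix genes were mostly near 0. Of 9 other thrombospondins, fasciclin-domain proteins and thrombospondin receptors, 2 were tested, and neither was called: THBS3 at 6.81 ± 0.43 and 7.34 ± 0.80 FPKM and the receptor gene CD47 at 71.4 ± 2.2 and 72.7 ± 1.9 FPKM in knockdown and control. THBS2, at 0.491 ± 0.095 and 0.248 ± 0.050 FPKM, and POSTN, the fasciclin-domain relative of TGFBI, at most 0.0332 FPKM in any library, were below the level for testing.

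**Figure D4:**
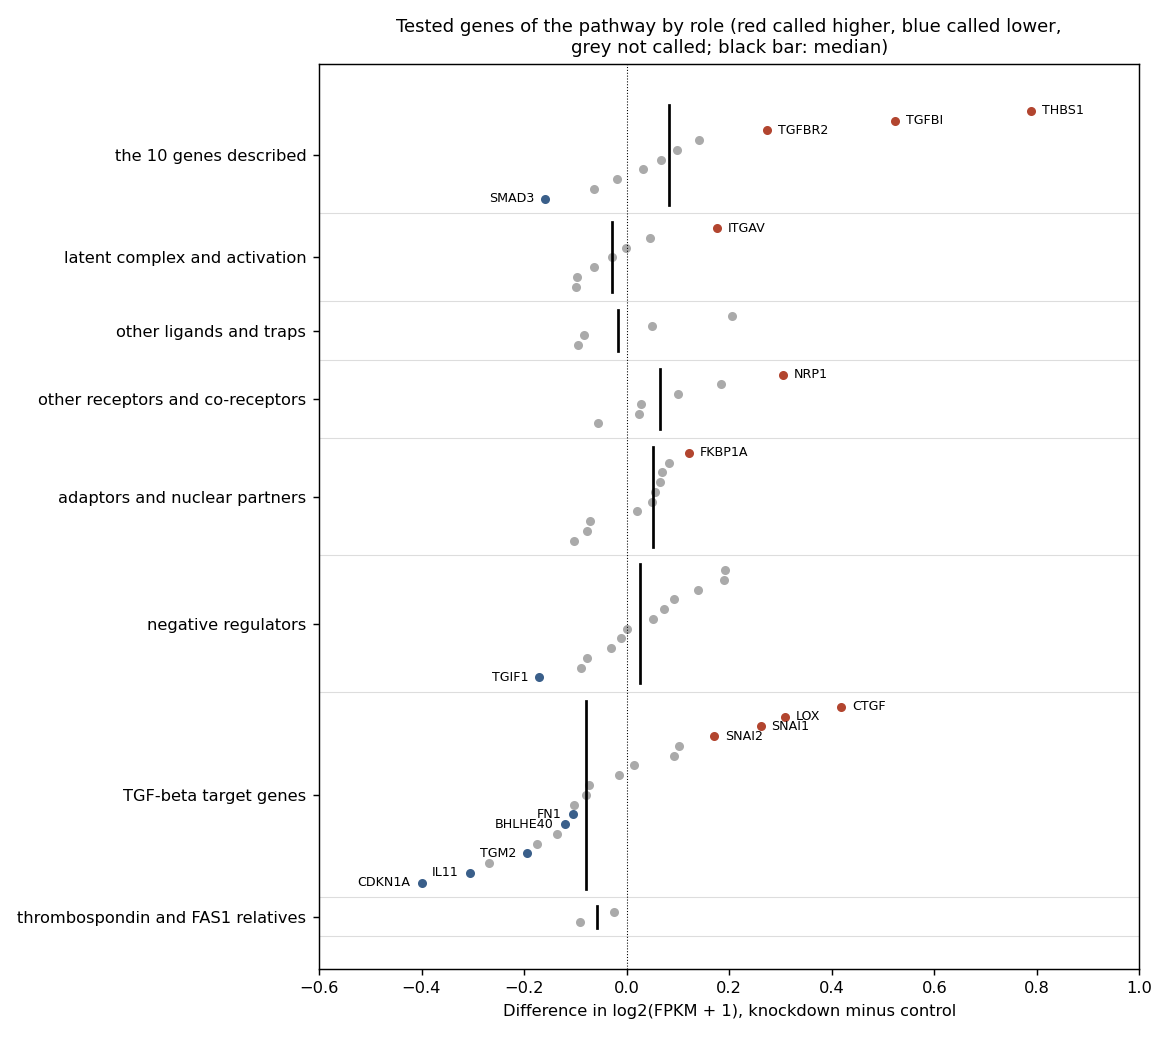
Difference in log2(FPKM + 1) between knockdown and control for the 10 genes and for the 60 tested genes of 7 pathway lists, with called genes named and coloured and the median of each list as a black bar. THBS1 and TGFBI lie farthest to the right, and called target genes lie on both sides of 0.

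The pattern over the 6 libraries was compared between THBS1 or TGFBI and the other 13610 tested genes, as the mean absolute difference of log2(FPKM + 1) after centring on the control mean. Nearest to THBS1 were ID3, an inhibitor of basic helix-loop-helix factors (0.05), BX004987.6 (0.06) and AGPAT9 (0.07). Nearest to TGFBI were the vimentin gene VIM, the receptor phosphatase gene PTPRB and MAGED2, each at a distance of 0.03 to 0.04. VIM went from 87.9 to 132 FPKM in the mean. A small distance over 6 libraries in 2 groups mainly describes genes with a similar difference between the groups.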

How the data were processed

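Gene levels are FPKM per Ensembl gene and library, deposited by the authors as 1 column for each of 6 libraries. TopHat 1.4.1, Cuffdiff 2.2.0 and build hg19 are named in the submitters' processing notes; no source used here gives the annotation release, the scaling between libraries or the strand setting. FPKM carries no read totals, so no counting interval was derived, and an isoform switch can move a gene's FPKM. In 27772 of 54607 rows every library was at 0. Such a 0 may stand for a failed estimate: U2AF1, a gene every cell uses, was listed at 0.

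Groups came from the sample titles. Knockdown was compared with control by limma 3.58.1 in R 4.3.3 (two-sided, variance trend on level) with log2(FPKM + 1) as the response and the 13611 rows whose mean reached 1 FPKM. A fold change on this scale understates the change of low genes. Of the steps, only the limma fit was run on simulated data, with independent normal noise of the variances limma had estimated. The 10 genes, the lists and the rule for naming genes (in each list every called gene up to 4, otherwise the 4 lowest adjusted p and calls against the majority) were chosen with earlier results of these data known; other genes named were chosen after their values were seen. The comparison was repeated with the replicate number as a block, with 0.1 as the pseudocount, without a filter, with a filter of 5 FPKM, under 2 other scalings, without the variance trend, after removal of trends on GC content and length (GENCODE v29, 45529 rows matched) and with each library left out. Ratios were tested by exact permutation. Promoter sequences are from RefSeq. Deposited start positions count from 0 and were raised by 1.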

Additional observations from a re-analysis of the deposited data

How the results depend on the processing

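The calls of THBS1, TGFBI and TGFBR2 as higher and of SMAD3 as lower held under all 14 alternatives, 6 of which left out a library. Their adjusted p reached at most 0.0032, 0.0057, 0.014 and 0.045. The log2 difference ranged from 0.76 to 0.83 for THBS1, 0.49 to 0.55 for TGFBI, 0.26 to 0.28 for TGFBR2 and -0.18 to -0.15 for SMAD3. The other 6 genes were called under none of their alternatives (lowest adjusted p 0.063, for SMAD7), SMAD2 being below the filter of 5 FPKM. The sign for TGFB1 turned with the GC and length trend removed (0.01) and that for SMAD2 without control replicate 1 (0.0035).

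The count of called genes over the whole table was 2278. It was 1433 with the replicate block and 1413 with no filter, where 26835 rows were tested, and it ranged from 1187 to 1983 when 1 library was left out. Same-numbered knockdown and control libraries did not deviate together (correlations of -0.017, 0.062 and 0.070), and not every library correlated best with its own number, so the numbers were not taken to pair the samples. The 5 ratios kept their direction when each library was left out: the log2 difference ranged from 0.13 to 0.33 for TGFB2 to TGFB1, -0.25 to -0.17 for TGFBR1 to TGFBR2, -0.17 to -0.11 for SMAD3 to SMAD2, 0.24 to 0.31 for SMAD7 to the sum and -0.32 to -0.25 for TGFBI to THBS1. In the pathway lists, the calls of ITGAV, NRP1, TGIF1, TGM2, IL11, FN1, LOX and SNAI2 were lost with no filter, and those of ITGAV, FKBP1A, TGM2, BHLHE40 and FN1 without the intensity trend. FN1 was also lost with a pseudocount of 0.1 and under both other scalings. Calls were gained by SKI, SMAD6 and PMEPA1 (higher) with the GC and length trend removed, by SKI also without knockdown replicate 3, by INHBB (lower) with TPM scaling, by ANGPTL4 (lower) with TPM scaling or without the intensity trend, and by JUNB (lower) without knockdown replicate 1.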
